A study of Homo sapiens with 6 samples.

Results

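The 6 genes examined here are the mitochondrially encoded subunits of respiratory complexes III, IV and V. They are MT-CYB of complex III, MT-CO1, MT-CO2 and MT-CO3 of complex IV, and MT-ATP6 and MT-ATP8 of complex V. They were taken by name from the 62438 genes of the deposited count table, with no threshold on their values, and make up 6 of the 13 protein-coding genes of the mitochondrial chromosome. All 6 passed the filter on low counts.

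RNA-seq was done on human cells given by the labels as the breast cancer line MDA-MB-453. The cells received an siRNA targeting N6AMT1 (the group si-N6AMT1) or a scrambled one (si-CN), each at 10 nM with Lipofectamine RNAiMAX, and were harvested after 48 h. Each group had 3 libraries, made from total RNA with a stranded mRNA kit. N6AMT1 is a methyltransferase that the study examined as a writer of N6-methyladenine (6mA) in DNA, and the comparison asks which transcripts change when it is silenced. The labels call the samples triplicates without saying how they were set up. The p-values thus set group differences against the spread between these libraries, which may be technical. For fold changes, that spread was estimated in part from all genes tested, not only from the gene's own libraries.

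The library totals ran from 19739247 to 21289740 counts. Levels are given as CPM, a gene's counts relative to its library's total after TMM scaling, with mean ± SD over 3 libraries. The silenced gene itself, N6AMT1, was at 6.81 ± 0.145 CPM in si-CN libraries against 3.18 ± 0.312 CPM after knockdown, a log2 fold change of -1.10. The label was also checked against markers, because MDA-MB-453 is known as a luminal line. The luminal markers were mixed. KRT19 was at most 0.683 CPM in any library, and GATA3, a luminal transcription factor, had a mean of 2.67 CPM in si-CN, while the luminal keratins KRT8 (600 CPM) and KRT18 (461 CPM) and the epithelial adhesion gene EPCAM (316 CPM) were high. FOXA1 (8.42 CPM) and CDH1 (4.98 CPM) were low in si-CN, and XBP1 was at 79.1 CPM. ERBB2, known to be amplified in this line, was at 53.7 CPM. This was under the basal genes EGFR (1157 CPM in si-CN) and KRT14 (111 CPM) but above ACTA2 (18.6 CPM). The basal keratins KRT5 (mean 768 CPM in si-CN) and KRT17 (2848 CPM), and the basal factor TP63 (207 CPM), were high. The high basal genes and the low KRT19 and GATA3 go against the label in both groups alike, so the cells are called by their label only. Summed over 6 basal markers the level was 5189 to 5251 CPM in si-N6AMT1 and 5080 to 5127 CPM in si-CN. Over 9 luminal markers it was 1567 to 1588 CPM against 1511 to 1552 CPM. Of 6 immune cell markers, 5 had a mean under 1 CPM, PTPRC, the common leukocyte antigen, among them. The list summed to 196 to 204 CPM against 141.8 to 142.4 CPM, nearly all of it from the lysosomal gene CD68. The 8 fibroblast and endothelial markers in the table summed to 58.8 to 62.5 CPM against 57.7 to 61.5 CPM. The part of these shifts in the results was not tested.

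Human mitochondrial DNA is a small circle that is copied into long RNAs spanning most of a strand. The heavy-strand transcript carries the rRNAs and nearly all the mRNAs, with tRNAs lying between many of them. Release of the tRNAs by endonucleases frees most of the mRNAs, which then receive short poly(A) tails. The 6 proteins sit in the cores of their complexes. Cytochrome b of complex III binds the sites where ubiquinol is oxidized and quinone reduced, COX1 of complex IV holds the site where oxygen is reduced, COX2 takes electrons from cytochrome c, and the a and A6L subunits of complex V belong to its membrane sector. The nuclear genome encodes every other subunit of these complexes.

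The borders of the 6 genes are shown first, because they set which members lie on one RNA and which are separated by a tRNA. Coordinates are those of the mitochondrial chromosome of GRCh37 (hg19), all on the plus strand and without introns. MT-CO1 (ENSG00000198804) occupies chrM:5904-7445, MT-CO2 (ENSG00000198712) chrM:7586-8269 and MT-ATP8 (ENSG00000228253) chrM:8366-8572. MT-ATP6 (ENSG00000198899) follows at chrM:8527-9207, MT-CO3 (ENSG00000198938) at chrM:9207-9990 and MT-CYB (ENSG00000198727) at chrM:14747-15887. MT-ATP8 and MT-ATP6 share 46 bases in different reading frames, printed in capitals in chrM:8507-8592.
MT-ATP8/MT-ATP6: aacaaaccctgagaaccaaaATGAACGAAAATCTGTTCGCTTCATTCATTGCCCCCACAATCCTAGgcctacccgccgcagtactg
MT-ATP6 and MT-CO3 share 1 base, with no tRNA between them. In chrM:9177-9237 the capitals mark the MT-CO3 start codon, whose first base is the last of MT-ATP6.
MT-ATP6/MT-CO3: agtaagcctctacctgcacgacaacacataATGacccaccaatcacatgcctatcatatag

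The other borders have a tRNA gene on one strand or the other. MT-CO1 ends in AGA, in capitals in chrM:7416-7475, and the bases behind it are complementary to MT-TS1, a tRNA gene of the opposite strand. MT-TD, a tRNA gene on the same strand as the members, lies between MT-TS1 and MT-CO2. MT-CO2 is followed by 25 bases, in capitals in chrM:8240-8299, and then by MT-TK. MT-CO3 (chrM:9961-10020) and MT-CYB (chrM:15858-15917) each end in a single T, in capitals, that is 1 base past a whole codon. Poly(A) addition is known to complete such a stop codon.
MT-CO1/MT-TS1: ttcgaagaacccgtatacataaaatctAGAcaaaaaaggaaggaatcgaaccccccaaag
MT-CO2/MT-TK: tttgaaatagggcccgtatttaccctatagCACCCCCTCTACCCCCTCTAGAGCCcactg
MT-CO3/MT-TG: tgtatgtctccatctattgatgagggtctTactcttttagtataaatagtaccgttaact
MT-CYB/MT-TT: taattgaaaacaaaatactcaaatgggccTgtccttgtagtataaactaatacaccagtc

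All 6 members were downregulated in si-N6AMT1, with log2 fold changes from -0.36 for MT-CO1 to -0.58 for MT-ATP6 (edgeR's quasi-likelihood test, FDR under 0.05 over 17320 genes). Of all genes tested, 11.5% were downregulated. Each member was lower in every si-N6AMT1 library than in every si-CN library, as were 18.0% of all genes, while 16.8% of all genes and 0 of the 6 members were higher in every one. Median log2 fold changes were 0.00 over all genes and -0.18 over the 1993 downregulated genes. Among these, 240 had a log2 fold change at or below that of MT-CO1, counting MT-CO1 itself, and 61 at or below that of MT-ATP6. In bulk RNA, fewer mitochondrial chromosomes or cells that carry them and less RNA from each cannot be told apart. Counts also depend on how well the mRNA kit captured each RNA, and changes in capture were not tested.

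**Figure D1:**
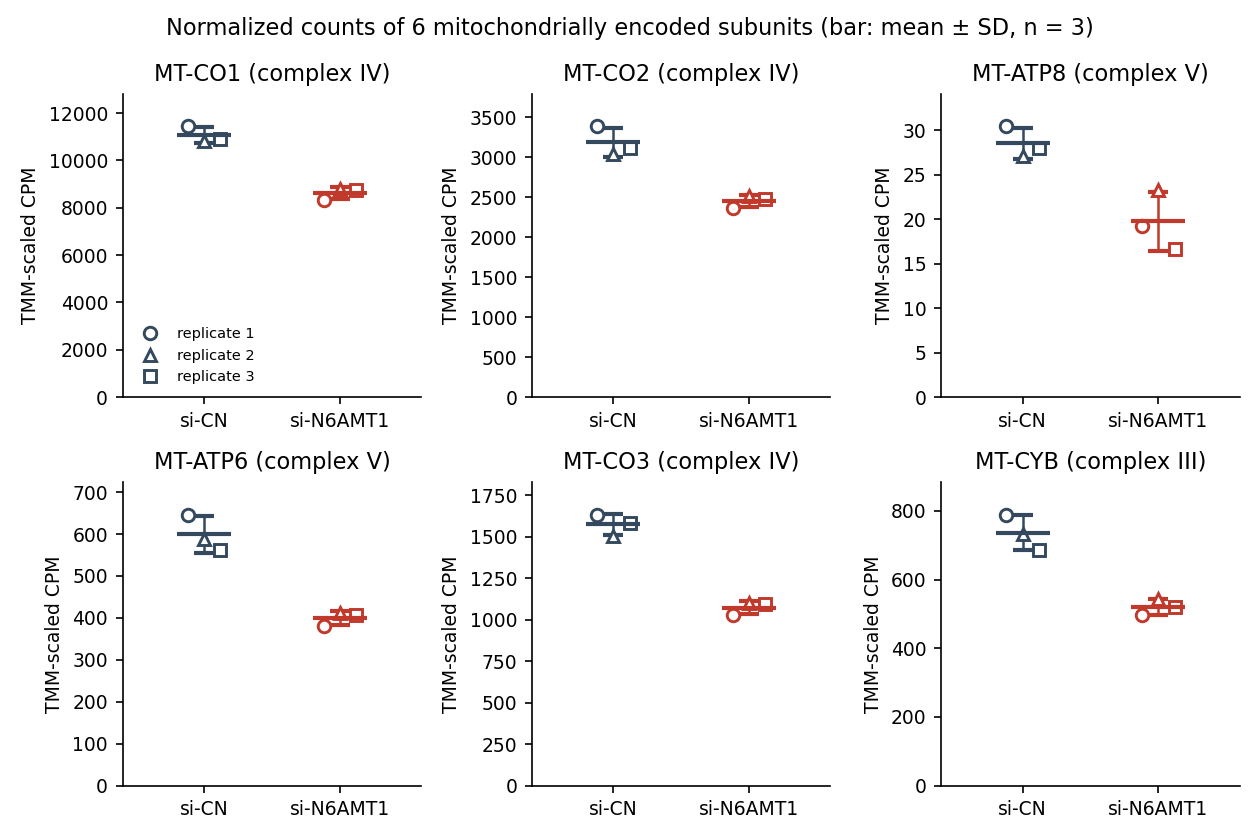
TMM-scaled CPM of each member in the 3 si-CN (dark) and 3 si-N6AMT1 (red) libraries, each axis starting at 0. Symbols mark replicates, and bars give mean ± SD (n = 3). In every panel the si-N6AMT1 points lie below all si-CN points, and replicate 1 is the highest si-CN library.

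MT-CO1, the catalytic subunit of cytochrome c oxidase, was at 11454, 10833 and 10922 CPM in si-CN replicates 1 to 3. In si-N6AMT1 it was at 8339, 8781 and 8734 CPM. The groups were separated by a gap wider than the spread of either, and the mean fell from 11070 ± 335 to 8618 ± 242 CPM (SD, n = 3). This was a 1.28-fold lower level, with a log2 fold change of -0.36 (SE 0.0226, FDR = 5.93e-11 from edgeR). By CPM, MT-CO1 ranked 1 among all genes in si-CN and 2 in si-N6AMT1.

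MT-CO2, which carries the copper center that receives electrons from cytochrome c, was at 3390, 3047 and 3116 CPM in si-CN. It was at 2365, 2515 and 2477 CPM in si-N6AMT1. Replicate 1 was the highest si-CN library and the lowest si-N6AMT1 library, and the groups did not overlap. The means were 3184 ± 182 and 2452 ± 77.9 CPM (SD, n = 3), and the log2 fold change was -0.38 (SE 0.0294, FDR = 2.34e-09 from edgeR). MT-CO3, the third core subunit of complex IV and one that binds no metal, was at 1634, 1506 and 1583 CPM in si-CN. Its si-N6AMT1 libraries had 1026, 1098 and 1095 CPM. The highest of these stood well under the lowest si-CN library. With means of 1574 ± 64.5 and 1073 ± 40.8 CPM (SD, n = 3), its log2 fold change of -0.55 (SE 0.0274) had the smallest FDR of the members, 1.44e-12 from edgeR.

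MT-ATP6 encodes subunit a, which lines the proton path of ATP synthase. Its level was 647, 589 and 562 CPM in si-CN and 382, 413 and 408 CPM in si-N6AMT1. The si-CN libraries were more widely spread than the si-N6AMT1 libraries, and all lay above them. The means were 599 ± 43.3 and 401 ± 16.6 CPM (SD, n = 3). MT-ATP6 had the lowest log2 fold change of the members, -0.58 (SE 0.0362, FDR = 5.93e-11 from edgeR), or a 1.49-fold lower level. MT-ATP8, which encodes the small A6L subunit, was at 30.5, 27.1 and 28.0 CPM in si-CN. In si-N6AMT1 it was at 19.3, 23.3 and 16.6 CPM. Here si-N6AMT1 replicate 3 was the lowest library, and replicate 2 lay closest to si-CN without reaching it. MT-ATP8 had the fewest counts, with 534 to 598 in a si-CN library and 341 to 476 in a si-N6AMT1 library. Its coefficient of variation in si-N6AMT1 was 17.1%, where counting alone would give 5.00%. The log2 fold change was -0.53 with the largest standard error of the members, 0.0801 (FDR = 3.31e-05 from edgeR).

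MT-CYB, the only complex III subunit of the mitochondrial genome, was at 790, 733 and 687 CPM in si-CN. It was at 496, 543 and 519 CPM in si-N6AMT1. The groups did not overlap, and their means were 737 ± 51.4 and 519 ± 23.0 CPM (SD, n = 3). The log2 fold change was -0.50 (SE 0.0357, FDR = 4.73e-10 from edgeR), or a 1.42-fold lower level. Over the 6 members, si-CN replicate 1 was the highest si-CN library for 6, and si-N6AMT1 replicate 2 the highest si-N6AMT1 library for 6. The lowest si-N6AMT1 library was replicate 1 for 5 members and replicate 3 for MT-ATP8.

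Per kilobase of gene, the order of the levels was the same in both groups, from MT-CO1 through MT-CO2, MT-CO3, MT-ATP6 and MT-CYB to MT-ATP8. In si-CN the means were 7179, 4655, 2008, 880, 646 and 138 CPM per kilobase. In si-N6AMT1 they were 5589, 3585, 1369, 589, 455 and 95.4 CPM per kilobase. No 2 neighbours in this order had overlapping libraries in either group. The narrowest step was from MT-ATP6 to MT-CYB, 1.36-fold in si-CN and 1.29-fold in si-N6AMT1, and the widest from MT-CYB to MT-ATP8, 4.69-fold and 4.77-fold. MT-ATP8 is also the shortest member, at 207 bases, and shares 46 of them with MT-ATP6. Levels were divided by the full gene length, with no correction for fragment length. The step to MT-ATP8 therefore need not be a difference in RNA amount.

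The members together took 1.71% ± 0.0582 of all counts in si-CN and 1.31% ± 0.0373 in si-N6AMT1 (SD, n = 3). All 3 si-N6AMT1 libraries were lower (two-sided exact permutation test, p = 0.1, the smallest p that 3 libraries against 3 allow). The complex IV members gave most of this, 1.57% in si-CN and 1.22% in si-N6AMT1. The complex V members fell from 0.0624% to 0.0421%, and the complex III member from 0.0732% to 0.0520%. Within the 6 members, the share of MT-CO1 was 64.4% ± 0.497 in si-CN and 65.9% ± 0.192 in si-N6AMT1 (SD, n = 3), higher in all 3 si-N6AMT1 libraries. MT-CO3 went from 9.16% to 8.20%, MT-ATP6 from 3.48% to 3.06% and MT-CYB from 4.28% to 3.97%, each lower in all 3 si-N6AMT1 libraries. Each of these shares, with that of MT-CO1, had p = 0.1 in the exact permutation test. The shares have a common total, so they do not shift separately. Separation of such relative values was common, as ratios of neighbouring nuclear genes did not overlap between groups in 46.0% of pairs. The shares of MT-CO2 (18.5% and 18.7%) and MT-ATP8 (0.166% and 0.151%) overlapped between groups.

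**Figure D2:**
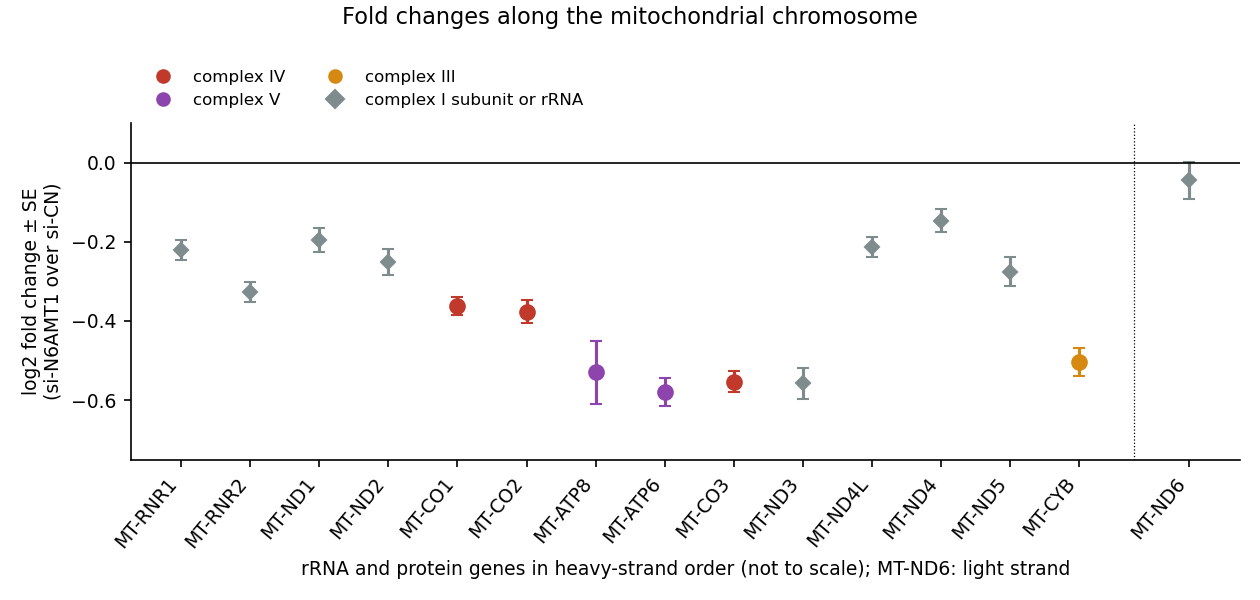
Log2 fold change of si-N6AMT1 over si-CN (vertical axis, error bars ± SE from edgeR) for the rRNA and protein genes in their order along the heavy-strand transcript, with MT-ND6 of the light strand set apart. MT-ATP8, MT-ATP6, MT-CO3 and MT-ND3 lie between -0.53 and -0.58, and MT-CO1 and MT-CO2 at -0.36 and -0.38.

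Along the chromosome, fold changes of adjacent members came close to each other in 2 runs. MT-CO1 and MT-CO2, adjacent protein genes with 140 bases and the tRNA gene MT-TD between them, had log2 fold changes of -0.36 and -0.38. MT-ATP8, MT-ATP6 and MT-CO3, which overlap or abut, had -0.53, -0.58 and -0.55. The next gene, MT-ND3 of complex I, lies 68 bases on behind MT-TG and had a log2 fold change of -0.56 (SE 0.0396, FDR = 4.73e-10 from edgeR). Behind it MT-ND4L was at -0.21. MT-CYB, with -0.50, lies 598 bases behind MT-ND5, which had -0.28. Of the 7 mitochondrially encoded complex I subunits, 6 were downregulated, the median over all 7 being -0.21, and MT-ND6, the light-strand gene, was at -0.05 (FDR = 0.558 from edgeR). Both rRNAs were downregulated, MT-RNR1 with -0.22 and MT-RNR2 with -0.33. The libraries were made with an mRNA kit, so counts of rRNAs need not follow their amounts.

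Ratios between neighbours were then taken within each library, as log2 of 1 gene's counts over those of its neighbour, so that the scaling of libraries cancels. For MT-CO2/MT-CO1 the si-CN libraries had -1.76, -1.83 and -1.81, and the si-N6AMT1 libraries -1.82, -1.80 and -1.82. The groups overlapped, with a difference of -0.01 (SE 0.0225, two-sided exact permutation test, p = 0.8). MT-CO3/MT-ATP6 was 1.34, 1.35 and 1.49 in si-CN and 1.43, 1.41 and 1.42 in si-N6AMT1. All si-N6AMT1 values lay inside the si-CN range, and the difference was 0.03 (SE 0.050, exact permutation p = 0.6). MT-ND3/MT-CO3 differed by -0.0044 (SE 0.0671), with overlapping libraries (exact permutation p = 1.0).

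Ratios that involve MT-ATP8 were less certain. MT-ATP6/MT-ATP8, the pair that shares bases, was 4.41, 4.44 and 4.33 in si-CN and 4.31, 4.14 and 4.61 in si-N6AMT1. The si-N6AMT1 libraries fell on both sides of si-CN, with a difference of -0.04 (SE 0.142, exact permutation p = 0.8). MT-ATP8/MT-CO2, across MT-TK, was -6.80, -6.81 and -6.80 in si-CN and -6.94, -6.75 and -7.22 in si-N6AMT1. Its groups overlapped through si-N6AMT1 replicate 2, and the difference was -0.17 (SE 0.135, exact permutation p = 0.4). Without si-N6AMT1 replicate 3 this difference was -0.042, and without replicate 2 it was -0.27. Shifts of this size were not separable from the spread between libraries.

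Groups did not overlap for 2 of the 7 neighbour ratios. MT-CO1/MT-ND2 was 3.22, 3.30 and 3.29 in si-CN and 3.19, 3.13 and 3.16 in si-N6AMT1. Every si-N6AMT1 library was lower, by 0.11 on average (difference -0.11, SE 0.0290). MT-CYB/MT-ND5 was -0.99, -0.89 and -1.20 in si-CN and -1.26, -1.21 and -1.30 in si-N6AMT1. Its si-CN replicate 3 came close to the si-N6AMT1 libraries, and the difference was -0.23 (SE 0.0931). Each had p = 0.1 in the exact permutation test, the smallest possible, and an adjusted p of 0.35 over the 7 ratios. For comparison, the same ratio did not overlap between groups in 46.0% of 4916 pairs of neighbouring nuclear genes on the same strand. The share among the members' neighbours was thus no higher than this background. The comparison is loose, because the members' neighbours lie on one transcript and several of their ratios reuse a gene.

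**Figure D3:**
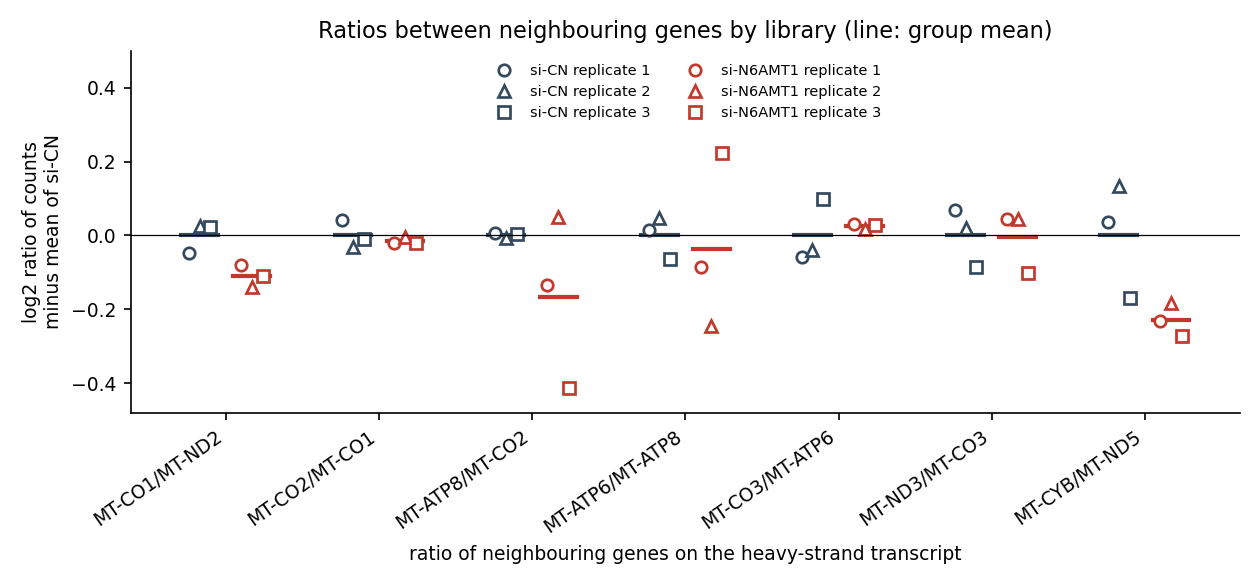
Log2 ratio of counts of neighbouring genes in each library (vertical axis), less the mean of the 3 si-CN libraries, for 7 pairs along the heavy-strand transcript. Dark symbols are si-CN, red symbols si-N6AMT1, and short lines group means. Red lies wholly below dark only for MT-CO1/MT-ND2 and MT-CYB/MT-ND5, and the pairs with MT-ATP8 have the widest spread.

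Ratios were also taken between all 15 pairs of members, neighbours or not. In 7 pairs the groups did not overlap, a share near the 46.0% of nuclear neighbours. MT-CO3/MT-CO1 differed by -0.19 (SE 0.0196) and MT-CO3/MT-CO2 by -0.18 (SE 0.0234). MT-ATP6/MT-CO1 differed by -0.22 (SE 0.0406) and MT-ATP6/MT-CO2 by -0.20 (SE 0.0319). For MT-CYB the differences were -0.14 (SE 0.0443) from MT-CO1 and -0.13 (SE 0.0392) from MT-CO2. The seventh pair, MT-ATP6/MT-CYB, differed by -0.08 (SE 0.0161). Each of the 7 had p = 0.1 in the exact permutation test and an adjusted p of 0.214 over the 15 pairs.

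The members were set against the 7 complex I subunits by the log2 ratio of the summed counts. The ratio was 0.81, 0.82 and 0.84 in si-CN and 0.64, 0.61 and 0.65 in si-N6AMT1. All si-N6AMT1 libraries were lower, and the difference was -0.19 (SE 0.0159, exact permutation p = 0.1). Ratios of neighbouring nuclear genes did not overlap between groups in 46.0% of pairs. Summed counts mostly follow the most abundant genes, here MT-CO1 and, in complex I, MT-ND4 (log2 fold change -0.15). MT-ND3 of complex I, at -0.56, was within the range of the members. The counts of the members were 1.77 times those of complex I in si-CN and 1.55 times in si-N6AMT1. As a share of all counts from the mitochondrial chromosome, the members had 45.9% ± 0.117 in si-CN and 43.6% ± 0.546 in si-N6AMT1 (SD, n = 3).

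Copies of the members lie in the nuclear genome, and kallisto divides reads between sequences it cannot tell apart by an estimate. For MT-CYB the copy sharing the most sequence, MTCYBP18, was equal at only 91.8% of 747 aligned bases. Of the 31-base words in each member's transcript, the length kallisto matches by default, 66.7% of those of MT-CO1 also occurred in other genes. The share was 63.7% for MT-ATP6, 50.5% for MT-CO2, 45.0% for MT-CO3, 44.6% for MT-ATP8 and 4.95% for MT-CYB. For MT-ATP8 and MT-ATP6 the other genes include each other, through the bases they share. The nuclear copy sharing the most words held 30.5% of those of MT-ATP8 and 61.3% of those of MT-ATP6. The counts given to the copies were small. They summed to 4.16% of the counts of MT-ATP6 and to 0.0486% or less for the other 5 members. MTATP6P1, at 569076 to 569756 on chromosome 1 (GRCh37), differs from MT-ATP6 at 10 of 681 bases. It was at 24.4, 23.9 and 23.5 CPM in si-CN and 16.4, 17.2 and 18.6 CPM in si-N6AMT1. Its log2 fold change was -0.46 (SE 0.0603, FDR = 5.63e-06 from edgeR), and how many of its reads came from MT-ATP6 was not tested. MTCO1P12, the copy of MT-CO1 on chromosome 1, had 23 to 39 counts per library and was not called (FDR = 0.438).

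The nuclear subunits of the same complexes were downregulated at or below the share over all genes. Of 9 nuclear complex III subunits, 1 was downregulated and 2 upregulated, and the median of their log2 fold changes was 0.08. Of 18 nuclear complex IV subunits, 13 were tested, of which 4 were upregulated and none downregulated, also at an unadjusted p under 0.05, with a median of 0.07. Of 18 nuclear complex V subunits, 2 were downregulated and 5 upregulated, with a median of 0.08. Over all genes, 11.5% were downregulated and 9.78% upregulated.

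**Figure D4:**
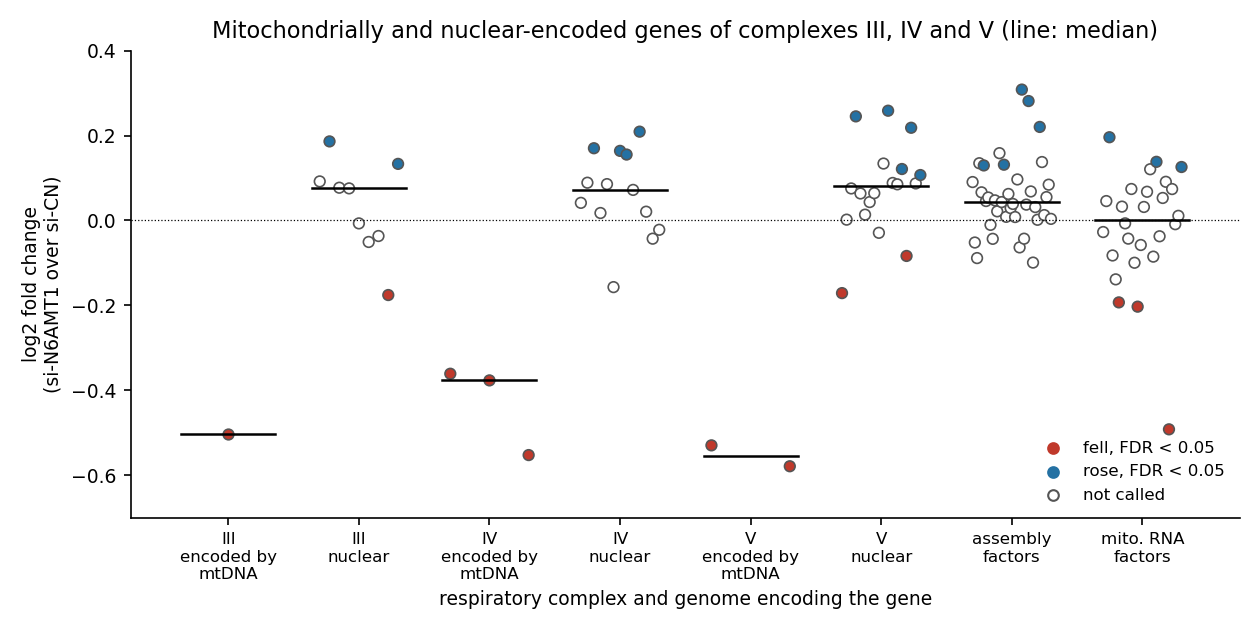
Log2 fold change (vertical axis) of each tested gene of complexes III, IV and V by the genome that encodes it, of their assembly factors and of mitochondrial RNA factors. Filled points passed FDR 0.05 in edgeR (red lower, blue higher in si-N6AMT1), and lines mark medians. The mitochondrially encoded subunits lie at -0.36 or below, and the medians of the nuclear lists between 0.00 and 0.08.

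In complex III, UQCRH, the hinge protein beside cytochrome c1, fell from 139 ± 2.22 to 123 ± 5.71 CPM (SD, n = 3; log2 fold change -0.18, FDR = 0.00017 from edgeR). The small subunits UQCR10 and UQCRQ rose, by log2 fold changes of 0.19 and 0.13. In complex IV, COX7B rose by 0.21 (FDR = 4.18e-05 from edgeR), COX5B by 0.17 and COX6C by 0.16. In complex V, ATP5F1A, the alpha subunit of the head, fell by 0.17 on the log2 scale (FDR = 3.64e-05 from edgeR), and ATP5PB of the peripheral stalk by 0.08. ATP5MF and ATP5PD, of the membrane part and the peripheral stalk, rose by 0.26 and 0.22, and ATP5F1D of the central stalk by 0.25. Each of these shifts was smaller in size than the smallest shift among the members, that of MT-CO1.

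Assembly factors of the 3 complexes gave 5 upregulated and no downregulated genes of 36 tested, with 1 lower at an unadjusted p under 0.05 and a median of 0.04 on the log2 scale. PET100 (0.31) and COA1 (0.13), which act in complex IV assembly, and TMEM242 (0.22), which acts in complex V assembly, were among those that rose. Of 26 factors that act on mitochondrial DNA or RNA, 3 were downregulated and 3 upregulated, with a median of 0.00. TFAM, which packages mitochondrial DNA and is needed to start its transcription, was at 78.0, 78.6 and 77.3 CPM in si-CN and 57.4, 55.0 and 53.9 CPM in si-N6AMT1. All 3 si-N6AMT1 libraries were far under si-CN, with a log2 fold change of -0.49 (SE 0.0343, FDR = 3.67e-10 from edgeR). The mitochondrial poly(A) polymerase MTPAP (-0.20) and the RNA-binding protein FASTKD5 (-0.19) fell with FDR = 0.0308 and 0.0465. FASTKD1 rose by 0.20 on the log2 scale, SLIRP by 0.14 and the DNA helicase TWNK by 0.13.

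The nuclear genes whose log2 CPM followed the mean of the 6 members most closely over the 6 libraries were taken from 10087 genes with at least 10 CPM. They were ERO1A (Pearson's r = 0.998), RIPK2 (0.997), CYP1B1-AS1 (0.996), SGCB (0.996) and LIMS1 (0.995). These values describe 6 libraries that fall into 2 groups. Their own log2 fold changes were smaller in size than those of the members, -0.17 for ERO1A, -0.08 for RIPK2, -0.19 for CYP1B1-AS1, -0.35 for SGCB and -0.20 for LIMS1. RIPK2, unlike the others, was not called (FDR = 0.130 from edgeR).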

How the data were processed

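The authors trimmed paired-end reads with Trim Galore, used kallisto v0.46.0 and the GENCODE annotation on hg19 to estimate transcript counts, and summed these by gene. The deposited values are estimated counts (expected counts) in whole numbers, without normalization. The strand setting of kallisto is not given in the sources used here, so reads from the strand opposite a member may be among its counts. Gene models and sequences came from GENCODE on GRCh37, and 62149 of 62438 identifiers matched a symbol.

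Counts were tested in R v4.3.3 with edgeR v4.0.16, which used TMM, its expression filter (minimum count 10, 17320 genes kept) and the quasi-likelihood test with 3 libraries per group, no covariate and Benjamini-Hochberg adjustment (FDR). SE is the absolute log2 fold change over the square root of F. It rests in part on a dispersion shared across genes, so it need not follow the SD of a gene's own libraries. Ratios used counts plus 0.5 and the two-sided exact permutation test over libraries. Nuclear pairs in the background had at least 300 mean counts. Copies were aligned with Biopython v1.88. The procedure was tested on simulated data, where its share of false calls varied with the random draw and could exceed the FDR threshold, so counts of calls over all genes may hold more false calls than the threshold states. Genes named were the members, their neighbours, up to 3 genes in each direction with the lowest FDR from each nuclear list, copies with at least 10 mean counts and the 5 most alike genes. A marker gene is not reported here, and list values leave it out. The members and lists were chosen with earlier results of these data known. The chi-square of 2 libraries' counts over its degrees of freedom was 1.36 to 1.77 within groups and 6.90 to 7.86 between them, so no library was a copy of another.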

Additional observations from a re-analysis of the deposited data

How the results depend on the processing

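The 6 members were downregulated in all 14 alternative fits: RLE size factors, library sizes without mitochondrial genes, DESeq2 v1.42.0, limma-voom v3.58.1, no expression filter, copies summed into their member, a replicate block alone or together with a GC correction, and each library left out. The largest FDR was 0.00270, for MT-ATP8 in DESeq2. Standard errors were larger in DESeq2 than in edgeR for every member. They were 0.0685 against 0.0362 for MT-ATP6, 0.145 against 0.0801 for MT-ATP8 and 0.0250 against 0.0226 for MT-CO1. With each library left out, log2 fold changes ran from -0.38 to -0.34 for MT-CO1, -0.41 to -0.33 for MT-CO2, -0.58 to -0.52 for MT-CO3, -0.62 to -0.52 for MT-ATP6, -0.67 to -0.42 for MT-ATP8 and -0.55 to -0.45 for MT-CYB. Over all genes, DESeq2 called 1275 downregulated and 955 upregulated, against 1993 and 1694 in edgeR. Leaving out a library left the MT-CO1/MT-ND2 (-0.13 to -0.10) and MT-CYB/MT-ND5 (-0.31 to -0.16) differences and that against complex I (-0.20 to -0.18) lower, but 2 libraries against 3 cannot give p under 0.2. The ratio differences near 0 changed sign, with ranges of -0.031 to 0.0064 for MT-CO2/MT-CO1, -0.17 to 0.069 for MT-ATP6/MT-ATP8, -0.0037 to 0.075 for MT-CO3/MT-ATP6 and -0.048 to 0.045 for MT-ND3/MT-CO3. Without si-CN replicate 1, MT-CO2/MT-CO1 was 0.0064, MT-CO3/MT-ATP6 -0.0037 and MT-ND3/MT-CO3 0.029. MT-ND3/MT-CO3 was 0.045 without si-N6AMT1 replicate 3 and 0.0052 without si-CN replicate 2, and MT-ATP6/MT-ATP8 was 0.069 without si-N6AMT1 replicate 2. MT-ATP8/MT-CO2 ran from -0.27 to -0.042, the latter without si-N6AMT1 replicate 3. The cause was not tested. MT-ATP8 had the fewest counts and a spread between libraries above that of counting.

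No pairing by replicate number was seen, as deviations of libraries with the same number correlated at -0.038, -0.042 and 0.010. Whether the libraries were set up in pairs is not stated by the labels. With the replicate block the log2 fold change was -0.36 for MT-CO1, -0.38 for MT-CO2, -0.55 for MT-CO3, -0.58 for MT-ATP6, -0.53 for MT-ATP8 and -0.50 for MT-CYB, all still called, and 1804 genes were downregulated and 1522 upregulated. Within pairs of libraries, the smallest possible p is 0.25.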
